A study of Mus musculus with 7 samples.

Results

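Broad distal acetylated domains were defined here as merged H3K27ac peaks at least 5000 bp wide that did not overlap the 2 kb on either side of a protein-coding transcription start site (TSS; mm10, GENCODE M21). Of 66841 merged peaks, 937 met both conditions. They made up 1.4% of the peaks and 9.01% of the 78380572 bp that the peaks covered. They were set beside 4416 distal peaks of 2000 to 4999 bp, 45070 distal peaks under 2000 bp, 677 promoter peaks of 5000 bp or more and 15741 narrower promoter peaks. Width was fixed by peak calls made in these same libraries, so the width and overall level of the domains describe how they were chosen. Merging joined calls of all times, so a region broad at a single time could enter through the time where it was high. The part of this choice in the changes over time was not tested. A domain is named below by the protein-coding gene with the nearest TSS, which gives its position and not a target.

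H3K27ac chromatin immunoprecipitation followed by sequencing (ChIP-seq) was carried out in mouse A2Lox embryonic stem (ES) cells in which a doxycycline-inducible promoter drives NeuroD1, a neurogenic basic helix-loop-helix (bHLH) transcription factor. Cells were uninduced (0 h, without doxycycline) or had received 500 ng/ml doxycycline for 12 h or 48 h, with 2 libraries (R1 and R2) at each time. The cells had been grown with LIF and serum on inactivated mouse embryonic fibroblast feeders and were feeder-free for the experiments, and all groups, uninduced cells included, carried the same transgene in 1 engineered line. No group received doxycycline without the transgene, and the labels do not say whether R1 and R2 were separate cultures, so p-values measure only the spread between these libraries.

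H3K27ac is a histone modification laid down by the acetyltransferases p300 and CBP, and it is found at regulatory elements in use. Where many transcription factors and coactivators bind close together, the mark can spread over a long stretch of chromatin, and such stretches are called super-enhancers or stretch enhancers. In ES cells the best known of them lie near the genes of the pluripotency network, where Oct4, Sox2, Esrrb and Klf factors bind together. NeuroD1 is a proneural factor that pairs with E proteins and binds E-boxes, which have the form CANNTG. Whether long domains behave like other distal peaks when a neurogenic factor is switched on was the question put to these libraries.

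Sequence from 6 domains is shown because these had the 3 largest gains and the 3 largest losses between 0 h and 48 h. Each is the 150 bp window of its domain with the most sites of a fixed set, taken from the reference genome of build mm10, 5′ to 3′ on the plus strand. In the 3 gained domains, capitals mark the E-boxes CAGATG (either strand) and CAGCTG. In the 3 lost domains, capitals mark the octamer ATGCAAAT of POU factors, the Esrrb site TCAAGGTCA or the Klf site GGGTGTGG, on either strand.
Skap2 domain, chr6:51847189-51847338: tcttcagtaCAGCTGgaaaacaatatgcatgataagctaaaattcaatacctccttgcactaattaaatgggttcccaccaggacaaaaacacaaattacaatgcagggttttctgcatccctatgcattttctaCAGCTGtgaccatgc
Serinc1 domain, chr10:57570218-57570367: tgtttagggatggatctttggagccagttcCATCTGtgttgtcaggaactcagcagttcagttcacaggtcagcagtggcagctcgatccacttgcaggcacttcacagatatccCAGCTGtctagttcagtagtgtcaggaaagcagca
Chd7 domain, chr4:8957980-8958129: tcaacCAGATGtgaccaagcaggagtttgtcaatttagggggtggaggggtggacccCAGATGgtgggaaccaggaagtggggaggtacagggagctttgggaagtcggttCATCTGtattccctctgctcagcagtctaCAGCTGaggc
Fam53a domain, chr5:33529804-33529953: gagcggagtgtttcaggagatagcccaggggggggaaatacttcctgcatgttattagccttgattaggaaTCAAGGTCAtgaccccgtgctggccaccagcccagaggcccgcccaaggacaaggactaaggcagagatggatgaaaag
Ino80d domain, chr1:63139141-63139290: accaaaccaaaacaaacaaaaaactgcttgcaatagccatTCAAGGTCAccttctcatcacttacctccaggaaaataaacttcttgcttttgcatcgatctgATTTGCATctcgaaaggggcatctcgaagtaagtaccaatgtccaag
Ephb2 domain, chr4:136730529-136730678: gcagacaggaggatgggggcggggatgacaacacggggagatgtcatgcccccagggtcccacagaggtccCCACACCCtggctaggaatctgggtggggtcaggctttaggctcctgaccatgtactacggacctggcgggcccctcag
The Chd7 window held 4 marked E-boxes, a density reached in 17 of 936 domains (1.82%), whereas the 2 E-boxes of the Skap2 and Serinc1 windows were reached in 725 (77.5%). The Ino80d window held an Esrrb site and an octamer, and 78 domains (8.33%) had a window with as many sites. The single sites of the Fam53a and Ephb2 windows were matched in 734 domains (78.4%). Among fixed 150 bp windows laid end to end, 17.9% held at least 1 of the marked E-boxes both in the domains and in narrower distal peaks, and 3.22% and 2.86% held at least 1 of the other 3 motifs.

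The 6 libraries held 6283103 to 8112895 reads in merged peaks. Counts were scaled to the mean library total before they were compared, so a scaled count is a share of peak reads. Promoter peaks of 8 ES cell marker genes were all present, with summed scaled counts of 17791.5 and 18055.1 at 0 h, 19634.3 and 19427.4 at 12 h, then 12286.2 and 15399.4 at 48 h. Of 8 neuronal marker genes, 6 had a promoter peak (none at Dcx or Snap25), and their sum was 771.8 and 714.3 at 0 h, 657.3 and 688.2 at 12 h, then 1456.7 and 999.2 at 48 h. Single markers went against these sums. In both 12 h libraries Nanog, Klf4 and Tfcp2l1 lay below 0 h, and Nhlh1 and Nhlh2 lay above it. Elavl3 and Stmn2 did not lie above 0 h in both 48 h libraries. Fibroblast markers, which feeder cells would carry, had a peak at 2 of 8 genes with sums of 14.0 to 40.4 in the 6 libraries, and none of 6 endoderm markers had one. In bulk ChIP-seq a smaller share of cells with the mark and less mark per cell cannot be told apart. The R1 and R2 libraries at 48 h stood apart from each other. R1 was lower than R2 in 837 of the 937 domains (89.3%, against 54.1% of all peaks), with a median log2 R1/R2 ratio of -0.45, whereas the same ratio was 0.07 at 0 h and -0.03 at 12 h. Which of them is the less usual cannot be told from a single pair. The main counts of domains at 48 h are therefore given both ways, whereas groupings by width, GC content and motif use both libraries. Calls of named domains that change without a 48 h library are given for some domains and not for all. A call, or the lack of a call, that stands alone below is thus not shown to hold without each library.

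The domains were 5008 to 29137 bp wide, with a median of 6510 bp, and carried a median of 735.2 scaled counts, or 109.6 per kb. Distal peaks of 2000 to 4999 bp carried 72.3 per kb, those under 2000 bp 39.7 per kb, and promoter peaks of 5000 bp or more 146.0 per kb. The domains were thus dense as well as long, with the caveat that width and signal are set by the same reads. The narrowest member (nearest Tor3a, 5008 bp) had scaled counts of 504.9 and 505.2 at 0 h, 618.7 and 601.6 at 12 h, then 527.4 and 587.3 at 48 h. The widest distal peak left out (nearest Brsk1, 4999 bp) had 445.4 and 519.0, 466.4 and 417.6, and 216.5 and 305.3.

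The median distance to a protein-coding TSS was 21491 bp, 224 domains lay over 50 kb away and 115 over 100 kb. By annotation, 460 were intergenic (49.1%), 251 intronic (26.8%) and 226 overlapped an exon (24.1%), and narrower distal peaks were intergenic in 51.1%, intronic in 37.2% and exonic in 11.7% of cases, a comparison in which long regions have more chance to touch an exon. Although none met the protein-coding TSSs of the definition, 308 domains (32.9%) lay within 2 kb of the start of another annotated transcript, among them 120 next to another transcript of a protein-coding gene, 66 next to a long intergenic noncoding RNA and 16 next to a microRNA. The 937 domains were shared among 746 nearest genes, of which 134 had 2 or more. When domains within 12.5 kb of each other were joined, 826 loci remained, and 90 of these held more than 1 domain.

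The share of all peak reads that fell in the domains was highest at 12 h. It was 11.44% and 11.03% at 0 h, 14.78% and 15.13% at 12 h, then 9.43% and 12.28% at 48 h. Both 12 h libraries therefore lay above the other 4, and the 48 h libraries lay on either side of 0 h. The means were 11.24% ± 0.29 (SD, n = 2), 14.96% ± 0.25 and 10.86% ± 2.02, a difference of 3.72 percentage points from 0 h to 12 h, with exact permutation p = 0.333 for 12 h against 0 h, 1.0 for 48 h against 0 h and 0.333 for 48 h against 12 h (two-sided). With 2 libraries against 2, 0.333 is the smallest p this test can give. Distal peaks of 2000 to 4999 bp ran the same way (14.47% and 13.58%, 17.36% and 17.58%, 13.2% and 15.74%), and narrower promoter peaks ran the other way (39.61% and 40.93%, 31.78% and 31.52%, 45.57% and 38.13%). As these are shares of a single total, a higher share in 1 class lowers the others.

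**Figure D1:**
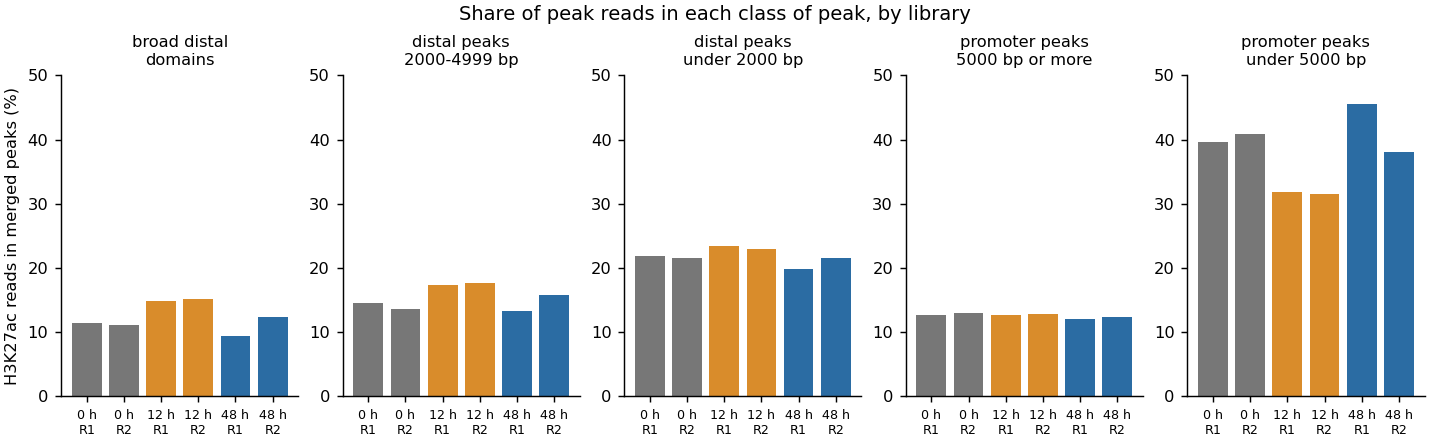
Share of H3K27ac reads in merged peaks (%, y axis from 0) that fell in each of 5 classes of peak, with 1 bar per library at 0 h (grey), 12 h (orange) and 48 h (blue). The domains took 14.78% and 15.13% at 12 h, above the other 4 libraries, while narrower promoter peaks were lowest at 12 h.

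After 12 h of NeuroD1, H3K27ac rose over a large part of the domains and fell over few, among regions whose width could come from the 12 h calls. With edgeR's quasi-likelihood test on all merged peaks (Benjamini-Hochberg adjusted p under 0.05), 393 of 937 domains were gained (41.9%) and 20 were lost (2.13%). Distal peaks of 2000 to 4999 bp had 29.3% gained and 3.6% lost, and the whole set of peaks had 9.93% gained and 6.03% lost. The median log2 fold change of the domains was 0.38, against 0.27 for distal peaks of 2000 to 4999 bp, 0.04 for those under 2000 bp and -0.39 for narrower promoter peaks, with -0.08 over all peaks. In 682 domains (72.8%) both 12 h libraries lay above both 0 h libraries, a pattern that 30.7% of all peaks showed. Most gains were modest: 133 of the 393 were 2-fold or more. High counts make small changes callable, and the domains hold many reads each, so the shares called are not comparable with those of weaker peaks on size alone. The number gained was 217 without the R1 and 121 without the R2 library at 0 h, and 218 without the R1 and 172 without the R2 library at 12 h. The number lost was 1 to 3 without any of these 4 libraries and 67 and 68 without R1 and R2 at 48 h, and with an offset for GC content 316 were gained and 50 lost with a median of 0.21.

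Between 12 h and 48 h the domains moved down. In this direct comparison 469 were lost (50.1%) and 31 gained (3.31%), beside 8.43% and 10.7% of all peaks. The median log2 fold change was -0.47. The next narrower class of distal peaks also moved down, with 30.4% lost, 8.22% gained and a median of -0.32. Narrower promoter peaks moved up, with 2.0% lost, 28.1% gained and a median of 0.46. High counts make small changes callable, so these shares are not comparable between classes on size alone. In 692 domains (73.9%, against 31.2% of all peaks) neither 48 h library reached the level of either 12 h library. Without the R1 library at 48 h, 428 were lost and 58 gained with a median of -0.27, and without R2 716 and 52 with a median of -0.74. The number lost was 200 without the R1 and 155 without the R2 library at 12 h, and the number gained was 9 without either of them.

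Against 0 h, the domains at 48 h were split. Here 157 were gained (16.8%, against 8.56% of all peaks) and 205 lost (21.9%, against 5.45%), with a median of -0.09. The next narrower class of distal peaks had 18.0% gained and 13.5% lost, with a median of -0.06. The share gained was thus not higher in the domains than in that class. High counts make small changes callable, so the shares are not comparable with those of weaker peaks on size alone. Both 48 h libraries lay above both 0 h libraries in 211 domains (22.5%) and below them in 335 (35.8%), where 23.9% and 28.7% of all peaks did so. The balance between gains and losses rested on which 48 h library was used: without R1, 335 were gained and 210 lost with a median of 0.10, and without R2, 162 were gained and 497 lost with a median of -0.35. DESeq2 called 153 gained and 123 lost, so the share of gains among its calls was larger than in edgeR. Without the R2 library at 0 h, 71 were gained and 51 lost, and without R1 at 0 h 87 were lost. Without either 12 h library 134 were lost.

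**Figure D2:**
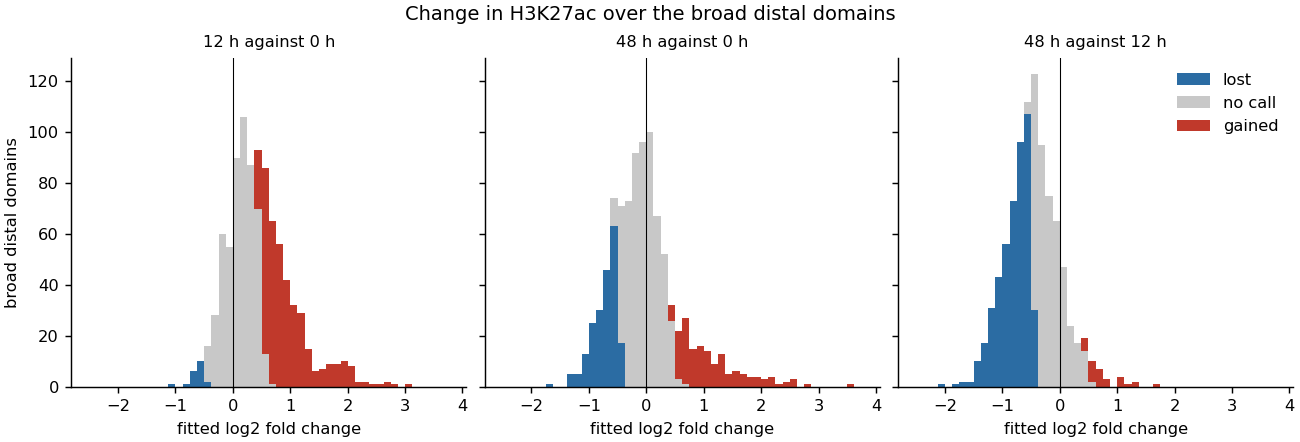
Number of broad distal domains (y axis) by fitted log2 fold change (x axis) in each comparison, with lost domains in blue, gained in red and domains without a call in grey. The bulk lies to the right of 0 at 12 h against 0 h (median 0.38), around 0 at 48 h against 0 h (median -0.09) and to the left at 48 h against 12 h (median -0.47).

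Put together as time courses, 234 domains (25.0%) were gained by 12 h and lost again from 12 h to 48 h, where 3.7% of all peaks were. Of these 234, 186 had no call against 0 h at 48 h, 32 were still gained and 16 had fallen below 0 h. Another 234 domains (25.0%, against 4.72% of all peaks) had no call at 12 h and were lost afterwards, and 145 of them were lost against 0 h. A further 152 (16.2%, against 5.78%) were gained by 12 h with no call afterwards, and 7 were gained at both steps. By contrast 18 domains were gained only from 12 h to 48 h (1.92%, against 7.22% of all peaks). No call was made in any comparison for 230. The rise and fall needs 2 calls, which high counts make easier, and the median scaled count was 735.2 in the domains and 30.4 over all peaks. Domains could also meet the width rule through the 12 h calls. The shares are therefore not comparable with those of all peaks on size alone. The counts of each course moved with single libraries. The rise and fall was called in 86 and 47 domains without R1 and R2 at 0 h, in 61 and 39 without R1 and R2 at 12 h, and in 300 and 492 without R1 and R2 at 48 h. Loss only after 12 h was called in 139 and 116 without R1 and R2 at 12 h and in 114 without R1 at 48 h, and gain without a later call in 71 without R2 at 0 h and in 247 and 63 without R1 and R2 at 48 h.

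Longer domains lost the mark more often after 12 h. The share lost from 12 h to 48 h was 42.8% of 353 domains of 5000 to 5999 bp, 48.1% of 324 of 6000 to 7999 bp, 57.4% of 188 of 8000 to 11999 bp and 75.0% of 72 of 12000 bp or more. The median log2 fold change went from -0.44 in the narrowest group to -0.61 in the widest. The median scaled count went from 549.0 to 2197.2 over the same groups. The parts of counting precision and of the choice by width in this trend were not tested.

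The 5 widest domains lay nearest Macf1, Rbpms, Mkrn1, Epha2 and Ldlrad3. The widest, 29137 bp in an intron of Macf1 (a linker of actin and microtubules; chr4:123608372-123637508), had scaled counts of 3126.9 and 2983.5 at 0 h, 4250.3 and 4524.0 at 12 h, then 3062.2 and 4311.4 at 48 h. It was gained at 12 h (log2 fold change 0.52 ± 0.14 (SE), edgeR adjusted p = 0.014) and had no call at 48 h (0.27 ± 0.14). The domain nearest Epha2, an ephrin receptor gene, had 4504.1 and 4667.9, then 5319.3 and 5187.3, then 2992.2 and 3249.4. Both 48 h libraries were below all others, and the change from 0 h to 48 h was -0.56 ± 0.12 (adjusted p = 0.0025). The domain in Ldlrad3 rose and partly came back, from 1888.2 and 1781.0 to 4271.7 and 4298.7 and then 2268.3 and 3155.7, with a gain of 1.22 ± 0.14 by 12 h (adjusted p = 2.4e-06) and of 0.56 ± 0.14 by 48 h (adjusted p = 0.009). With all 6 libraries the domains in Rbpms and near Mkrn1 had no call against 0 h at either time. Without R1 at 48 h the 48 h changes of Macf1 and Rbpms were 0.50 and 0.35 and called, without R2 that of Mkrn1 was -0.29 and called, and without either of them the 12 h changes of Rbpms, Mkrn1 and Epha2 (0.25, 0.31 and 0.20) were called. The 12 h call of Macf1 was lost with the GC offset (0.19) and without any 1 of the 0 h and 12 h libraries, the 48 h call of Epha2 without R2 at 0 h and that of Ldlrad3 without either 0 h library.

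The 5 domains with most counts per kb, 341.6 to 768.2, were of another kind. They lay in the pseudoautosomal end of X near Mid1, on Y near Gm47283, on the unplaced scaffold JH584304 (nearest AC149090.1), and near the predicted genes Gm3417 and Gm3435 on chromosome 17. Such sequence has near-identical copies, so reads there may have been split or shared between copies and the values are uncertain. The Mid1 domain had 5318.9 and 5205.0 at 0 h, 2732.0 and 3335.5 at 12 h, then 5177.2 and 3241.7 at 48 h, lost at 12 h (-0.79 ± 0.16, adjusted p = 0.0014) and without a call at 48 h (-0.32 ± 0.16), where its libraries lay far apart. Without R1 at 48 h it was called lost at 48 h (-0.70), and the 12 h call was lost without R2 at 0 h or R1 at 12 h.

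The largest gains were seen in domains that started low, which can have met the width rule through an induced time. The domain 201333 bp from Chd7, a chromatin remodeller gene (chr4:8952771-8959290), had 119.0 and 83.8 scaled counts at 0 h, 813.8 and 845.4 at 12 h, then 596.2 and 631.1 at 48 h. All 4 induced libraries lay above both uninduced ones, with a log2 fold change of 3.03 ± 0.19 by 12 h (adjusted p = 1.6e-09) that stood at 2.59 ± 0.19 by 48 h (adjusted p = 3.2e-09). The domain nearest Skap2, an adaptor of immune cell signalling (chr6:51846797-51852039, 160476 bp away), rose in steps: 53.4 and 42.5, then 200.5 and 160.1, then 627.3 and 545.2. Its gain was the largest at 48 h (3.61 ± 0.22, adjusted p = 3.9e-10) and was called again from 12 h to 48 h (1.70 ± 0.19, adjusted p = 9.9e-06). The domain nearest Serinc1 had 99.5 and 60.5, then 547.9 and 471.9, then 522.9 and 648.3, with no call between 12 h and 48 h. It and the Chd7 domain stood among the 5 largest gains at both times. Domains in Fars2 (a mitochondrial tRNA synthetase; 2.59 ± 0.20 at 48 h) and Susd6 (2.51 ± 0.19) were next and were also called from 12 h to 48 h, by 0.62 and 0.53. The other large 12 h gains, nearest Ercc4 (2.76 ± 0.23), Plekhg1 (2.74 ± 0.23) and in Frmd4b (2.50 ± 0.18), fell after 12 h by 0.71, 1.16 and 0.59 and were still gained against 0 h at 48 h. The gains of these 8 domains against 0 h were called under every alternative tried. From 12 h to 48 h, the calls of Ercc4, Frmd4b, Fars2 and Susd6 were lost without either 12 h library, that of Susd6 also without either 0 h library and that of Ercc4 without R1 at 48 h (-0.36), while the Chd7 domain was called lost without R1 (-0.39) or R2 (-0.48) at 48 h and the Serinc1 domain gained with the GC offset (0.58).

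Losses were smaller and came mostly after 12 h. The largest was nearest Fam53a (chr5:33529057-33535636, 93276 bp away), with 847.7 and 922.3 at 0 h, 649.8 and 653.1 at 12 h, then 235.4 and 303.5 at 48 h. At 48 h both libraries were far below all others, with a change of -1.71 ± 0.17 (adjusted p = 2e-07), while at 12 h the change of -0.44 ± 0.16 did not pass the test (adjusted p = 0.064). An intronic domain of Col13a1 (chr10:61926102-61933131), a membrane collagen gene, first rose and then fell: 601.4 and 593.3, then 925.3 and 832.5, then 211.0 and 273.4. The 12 h gain was 0.56 ± 0.16 (adjusted p = 0.024), and by 48 h the domain stood at -1.30 ± 0.17 against 0 h (adjusted p = 1.1e-05). Domains nearest Ino80d (-1.37 ± 0.20), in Ephb2 (-1.31 ± 0.18) and nearest Inhbb (-1.29 ± 0.18) were also lost at 48 h. Of the 20 domains lost at 12 h, the largest drop was in Ccdc57, nearest to the fatty acid synthase gene Fasn. It had 607.5 and 584.8 at 0 h, 285.2 and 288.8 at 12 h, then 278.7 and 334.5 at 48 h, a loss of -1.05 ± 0.17 at 12 h (adjusted p = 0.00017) that was still called at 48 h (-0.96 ± 0.17). In Kank2 the loss was called at both times as well (-0.73 and -0.81), whereas the domains nearest 1700001O22Rik and Dpf1 (-0.73 and -0.70 at 12 h) were gained again from 12 h to 48 h by 1.08 and 0.66. The 5 largest losses at 48 h and both losses in Ccdc57 were called under every alternative tried. The 12 h calls of Col13a1, 1700001O22Rik and Dpf1 were lost without any 1 of the 0 h and 12 h libraries, that of Kank2 without R2 at 0 h or either 12 h library, and its 48 h call without R2 at 0 h. The rise of Dpf1 after 12 h was not called without either 12 h library, the 12 h loss of 1700001O22Rik not by DESeq2, and without R2 at 48 h the latter was called gained at 48 h (0.67). The 12 h change of Fam53a was called without either 48 h library.

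**Figure D3:**
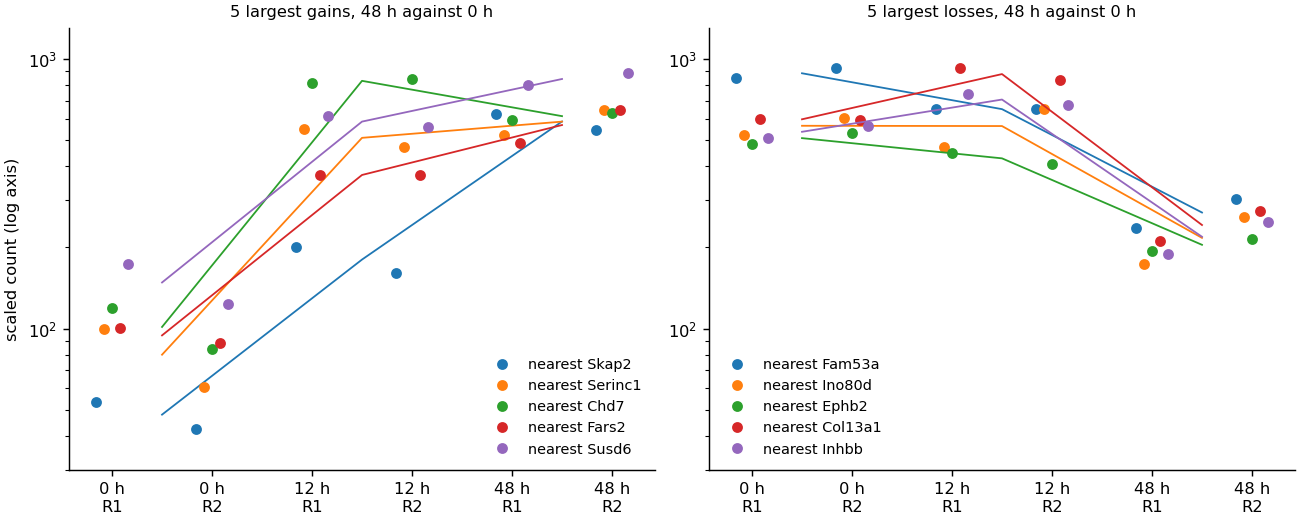
Scaled counts (log axis) in each of the 6 libraries (points) for the 5 most gained and the 5 most lost domains at 48 h against 0 h, with lines through the mean of each time. Gained domains lay between 42.5 and 173.4 at 0 h and at 488.5 or more in every 48 h library, and lost domains lay between 174.3 and 303.5 at 48 h, below every 0 h and 12 h library of the same domain.

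Domains near genes of the pluripotency network fell after 12 h. Of 25 genes listed for this network, 13 were the nearest gene of 18 domains. All 18 had both 48 h libraries below both 12 h libraries, as did 73.9% of the 937 domains and 31.2% of all peaks. Of these 18, 16 were lost from 12 h to 48 h (median -0.92), 11 were lost against 0 h at 48 h (median -0.51) and 6 were gained at 12 h (median 0.39), with none gained at 48 h. Over all 937 domains these shares were 50.1%, 21.9% and 41.9%. The 6 genes named are those with most counts in 1 domain. The domain 102389 bp from Sox2 (chr3:34752794-34767551), in the region known as the distal Sox2 control region in ES cells, had 2588.1 and 2735.2 at 0 h, 3776.3 and 3643.7 at 12 h, then 1552.2 and 2372.4 at 48 h. The rise at 12 h was called (0.48 ± 0.15, adjusted p = 0.034), the 48 h value was not (-0.44 ± 0.15, adjusted p = 0.057), and the drop between them was (-0.92 ± 0.15, adjusted p = 0.00037). Near Klf4, which encodes a zinc finger factor used in reprogramming, the larger of 2 domains (chr4:55469611-55482425, 50041 bp away) had 1948.8 and 1993.3, then 2606.6 and 2481.0, then 956.0 and 1475.5. It was lost at 48 h (-0.70 ± 0.16, adjusted p = 0.0043), as were the domains nearest Klf2 (-0.61 ± 0.16) and Jarid2, a Polycomb cofactor (-0.50 ± 0.15). Near Mycn, a Myc family gene, 2061.7 and 1963.5 became 2918.6 and 2985.1 and then 1353.4 and 2113.6, a gain at 12 h (0.55 ± 0.16) without a call at 48 h. The domain overlapping Etv5, an ETS factor gene, was the exception among the 6, with 2317.2 and 2156.7, then 2830.6 and 2936.3, then 1898.6 and 2703.4 and no call in any comparison with all 6 libraries. The other 12 included the domains nearest Pou5f1, Esrrb, Zfp42, Tfcp2l1, Klf5 and Tfap2c. Without R2 at 48 h the 48 h changes of Sox2 (-0.78) and Mycn (-0.57) were called, and without R1 that of Etv5 was called gained (0.27). The 12 h calls of Sox2, Mycn and Jarid2 were lost without any 1 of the 0 h and 12 h libraries (Sox2 and Jarid2 also by DESeq2 and with the GC offset), and the 48 h calls of Klf4, Klf2 and Jarid2 without either 0 h library (Klf2 and Jarid2 also by DESeq2). The 48 h call of Jarid2 was also lost with TMM factors (-0.43), in the fit of the 4 libraries compared and without either 12 h library. The number gained at 12 h was 0 without any 1 of the 0 h and 12 h libraries, 13 without either 48 h library and 3 by DESeq2 or with the GC offset. The number lost from 12 h to 48 h was 11 without either 12 h library, and 15 to 18 without another. The number lost against 0 h was 3 without R1 and 0 without R2 at 0 h, 7 without either 12 h library, 10 without R1 and 17 without R2 at 48 h, 5 by DESeq2 and 16 with the GC offset.

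A further domain was looked at after its values were seen because it covers a microRNA cluster. In all, 24 microRNA genes listed by RefSeq lay within 13 of the domains. One of 23602 bp (chr7:3198319-3221920, nearest protein-coding gene Nlrp12) holds the miR-290 to miR-295 cluster, a group of microRNAs abundant in mouse ES cells. Mature sequences from RefSeq (GRCm38) are shown with the seed, bases 2 to 8, in capitals, because 3 of them share 1 seed.
miR-290a-3p: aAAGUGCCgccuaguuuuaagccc
miR-291a-3p: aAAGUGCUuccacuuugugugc
miR-294-3p: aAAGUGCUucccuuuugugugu
miR-295-3p: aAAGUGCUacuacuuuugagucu
Of these, miR-291a-3p, miR-294-3p and miR-295-3p have the seed AAGUGCU. The domain had 5442.0 and 5355.7 scaled counts at 0 h, 7006.9 and 7192.7 at 12 h, then 3298.6 and 4621.8 at 48 h. It was above 0 h at 12 h in both libraries and below it at 48 h in both, with changes of 0.40 ± 0.13 (adjusted p = 0.045) and -0.45 ± 0.13 (adjusted p = 0.027). Both calls lay near the threshold and were lost by DESeq2 and without any 1 of the 0 h and 12 h libraries, and the 12 h change was 0.18 and not called with the GC offset. At the Mir182, Mir96 and Mir183 cluster near Nrf1, the domain next to Mir182 was lost at 48 h (-0.94 ± 0.16, adjusted p = 0.00019), from 877.4 and 900.0 at 0 h to 417.5 and 508.2, and the domain that holds the 3 hairpins was not called (-0.19 ± 0.16, adjusted p = 0.48). MicroRNA levels were not measured.

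Of 43 listed genes of neuronal structure and migration, 8 were nearest to 10 domains, of which 9 were gained at 12 h (median 0.99) and 4 at 48 h (median 0.39), with 1 lost at 48 h and 6 lost from 12 h to 48 h. Over all 937 domains 41.9% were gained at 12 h, 16.8% gained and 21.9% lost at 48 h and 50.1% lost from 12 h to 48 h. In all 10, both 12 h libraries lay above both 0 h libraries, as in 72.8% of the 937 domains and 30.7% of all peaks. An intronic domain of Elavl4, which encodes a neuronal RNA-binding protein, had 876.4 and 740.8 at 0 h, 1334.9 and 1430.4 at 12 h, then 796.1 and 1147.1 at 48 h, a gain of 0.77 ± 0.17 at 12 h (adjusted p = 0.0027) that was absent from the 48 h calls (0.27 ± 0.17). The promoter peaks of Elavl4 summed to 194.0 and 169.8 at 0 h, 141.5 and 138.9 at 12 h, then 342.0 and 237.3 at 48 h, so both 12 h libraries lay below 0 h there. In Elavl2, of the same family, the values were 410.5 and 287.6, 783.8 and 756.2, and 354.2 and 758.4, and here the 48 h libraries lay far apart. In Epha4, an axon guidance receptor gene with 3 domains, the largest had 892.8 and 741.9, 1588.0 and 1524.3, and 601.8 and 1011.2. It was gained at 12 h (0.93 ± 0.18) and its 48 h value of -0.02 ± 0.18 became 0.31 without R1 and -0.44 without R2 at 48 h, both called. Domains nearest Sema6a, a semaphorin (1.36 ± 0.20 at 12 h, 0.76 ± 0.20 at 48 h), and in Rnd3 (0.46 ± 0.15 and 0.51 ± 0.15), were gained at both times. Nrp2, a semaphorin co-receptor, held the member that fell: 1679.9 and 1597.4, then 1737.0 and 1836.1, then 852.7 and 1247.7 (-0.64 ± 0.16 at 48 h, adjusted p = 0.0076). Without R1 at 48 h the 48 h changes of Elavl4 (0.50) and Elavl2 (1.12) were called, and without R2 that of Sema6a (0.32) was not. The 12 h calls of Elavl4, Elavl2 and Epha4 were lost without R2 at 0 h, that of Elavl4 also without R2 at 12 h and with the GC offset (0.26), that of Elavl2 by DESeq2, both calls of Rnd3 without any 1 of the 0 h and 12 h libraries, its 12 h call also with the GC offset (0.12), and the 48 h calls of Sema6a and Nrp2 without either 0 h library. The falls of Elavl4 and Sema6a after 12 h were not called without R1 at 48 h (-0.27 each), nor by DESeq2 or without any 1 of the 0 h and 12 h libraries. Without 1 library, 4 to 9 of the 10 were gained at 12 h (4 without R2 at 0 h) and 2 to 7 at 48 h (2 without either 0 h library, 7 without R1 at 48 h), and with the GC offset 6 and 5. From 12 h to 48 h, 3 were lost without either 0 h library, 2 and 1 without R1 and R2 at 12 h, and 4 and 9 without R1 and R2 at 48 h.

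Only 4 of 48 listed Notch and proneural genes had a domain nearest to them, and 3 of the 4 domains were gained at 12 h and at 48 h, where 41.9% and 16.8% of all domains were. The domain nearest Insm1, a zinc finger gene of neuronal and endocrine progenitors, lay in an intron of Ralgapa2, 75338 bp away (chr2:146297259-146306399). It had 642.4 and 474.4 at 0 h, 1584.7 and 1800.2 at 12 h, then 1150.3 and 1540.9 at 48 h, so all 4 induced libraries were above both uninduced ones (log2 fold change 1.60 ± 0.17 by 12 h and 1.27 ± 0.17 by 48 h, both called). The domain nearest Otx2, a homeobox gene of the anterior neural plate, had 759.4 and 712.2, then 1536.5 and 1524.3, then 942.6 and 1409.3 (1.06 ± 0.17 and 0.68 ± 0.17). The domain nearest Btg2, an antiproliferative gene of neurogenic progenitors, had 668.1 and 519.0, then 1040.0 and 1070.8, then 1345.7 and 1163.4 (0.83 ± 0.16 and 1.08 ± 0.16). That of Pax6, the eye and forebrain homeobox gene, had 500.8 and 395.9, 589.7 and 523.4, and 608.4 and 536.6, with no call in any comparison. Without R2 at 48 h its 48 h change was called (0.44), and without either 48 h library its 12 h change was (0.31). Both calls of Insm1 were kept under every alternative tried, the 48 h call of Otx2 was lost without either 0 h library and the 12 h call of Btg2 without R2 at 0 h.

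**Figure D4:**
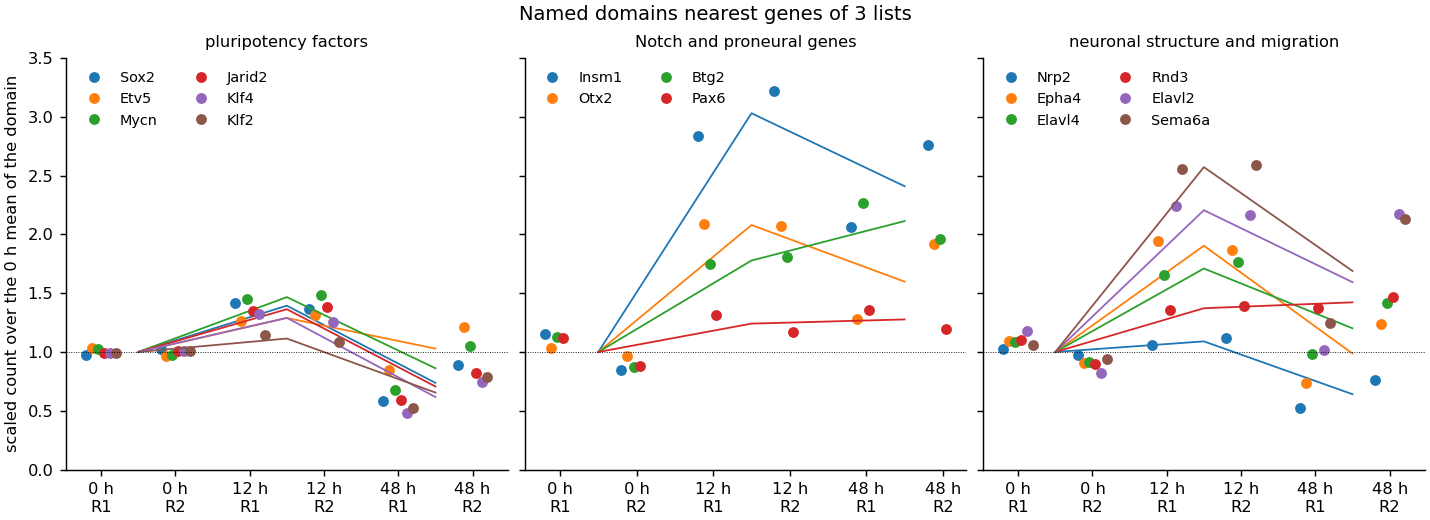
Scaled counts of named domains divided by the 0 h mean of the same domain (y axis from 0), per library (points), with lines through the mean of each time, for domains nearest pluripotency factors, Notch and proneural genes, and genes of neuronal structure and migration. The 48 h means of the first list lie below the dotted line at 1 except that of Etv5, with 48 h R1 below 48 h R2, and every 12 h library of the neural domains lies above 1, Nrp2 least.

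Among FGF, ERK feedback and LIF genes, 7 of 17 were nearest to 9 domains, with 4 gained at 12 h, 1 gained and 1 lost at 48 h, and 6 lost from 12 h to 48 h, near the 41.9% of all domains gained at 12 h and the 50.1% lost after it. Without single libraries 1 to 5 were gained at 12 h (1 without R2 at 0 h, 2 without R2 at 12 h) and 2 to 6 lost after it (2 without either 12 h library). At 48 h, 3 were gained and 1 lost without R1 and 1 and 5 without R2, and without R2 at 0 h none was called. The domain nearest Lifr, the receptor of LIF, had 1103.2 and 1012.6 at 0 h, 2179.8 and 2306.2 at 12 h, then 611.8 and 1350.0 at 48 h. It was gained at 12 h (1.08 ± 0.21, adjusted p = 0.0012), and its 48 h value of -0.10 ± 0.21 became 0.35 without R1 and -0.79 without R2 at 48 h, both called. The domains nearest Spry4 (0.71 ± 0.15) and in Spred2 (0.76 ± 0.15), both genes of ERK inhibitors, were gained at 12 h and lost from 12 h to 48 h by 0.82 and 0.52. That nearest Dusp5, an ERK phosphatase gene, was lost from 12 h to 48 h by 0.61. The 12 h call of Lifr was lost without R2 at 0 h, that of Spry4 without any 1 of the 0 h and 12 h libraries and that of Spred2 without R2 at 0 h or at 12 h. The fall after 12 h was not called without either 12 h library for Spred2 and Dusp5, and for Spred2 also without either 0 h library. At 48 h, Spry4 (-0.41) and Dusp5 (-0.70) were called lost without R2 and Spred2 (0.39) gained without R1. The domain in Fgfr1 and the stronger of 2 nearest Spry2 had no call in any comparison. Of the Nodal, BMP and activin list, 3 of 20 genes had 1 domain each. The domain of Id2, a bHLH inhibitor gene and BMP target, rose from 305.8 and 237.7 to 603.7 and 615.4 and then 802.7 and 748.1 (1.16 ± 0.17 and 1.51 ± 0.17). That of Id1, of the same family, had 481.3 and 559.3, 414.9 and 448.9, and 348.6 and 311.3 and was lost at 48 h (-0.66 ± 0.17, adjusted p = 0.011), a call lost by DESeq2 and without R2 at 0 h. The 2 Id domains thus stood on opposite sides of 0 h at 48 h.

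In the list of DNA methylation and chromatin regulators, 4 of 20 genes were nearest to 6 domains, with 4 gained at 12 h, 2 gained and 1 lost at 48 h, and 4 lost from 12 h to 48 h, beside 41.9%, 16.8%, 21.9% and 50.1% of all domains. Without R2 at 0 h 2 were gained at 12 h and none lost at 48 h, without R2 at 48 h 4 were lost at 48 h, and without either 12 h library 2 were lost after 12 h. Both domains nearest Chd7 were gained at both times. Of the 2 domains nearest Myc, the one with more counts, 20000 bp away, had 609.6 and 704.8 at 0 h, 1153.7 and 1204.1 at 12 h, then 303.1 and 574.4 at 48 h, gained at 12 h (0.84 ± 0.20, adjusted p = 0.0055) and lost from 12 h to 48 h (-1.42 ± 0.20, adjusted p = 8.5e-05). The domain in Tet2, a 5-methylcytosine oxidase gene, was lost from 12 h to 48 h (-0.73 ± 0.17), and that nearest Trim71, a heterochronic gene, at 48 h (-0.75 ± 0.15). Without R2 at 48 h, Myc (-1.12) and Tet2 (-0.89) were called lost against 0 h. The 12 h call of Myc was lost without any 1 of the 0 h and 12 h libraries, the call of Tet2 without either 12 h library and that of Trim71 at 48 h without R2 at 0 h. Of the actin, adhesion and epithelial genes, 4 of 22 had a domain. Those in Cdh1, the E-cadherin gene (-0.52 ± 0.16), and Cd9 (-0.57 ± 0.18) were lost at 48 h, that in Actn1 was gained at both times (0.93 ± 0.16 and 0.85 ± 0.16) and that nearest Actb at 12 h (0.59 ± 0.17). The single domain of the mesoderm, endoderm and trophoblast list, in Tfap2a, was gained at both times (0.66 ± 0.19 and 0.70 ± 0.19). Without any 1 of the 0 h and 12 h libraries the calls of Cdh1, Cd9 and Actb and the 12 h call of Tfap2a were lost, and TMM and DESeq2 also ended those of Cdh1 and Cd9. The calls of Actn1 were lost without R2 at 0 h, and the 48 h call of Tfap2a without either 0 h library or R2 at 48 h (0.34).

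There were 111 pairs of neighbours within 12.5 kb, and no pair was called in opposite directions in any of the 3 comparisons. Both were lost from 12 h to 48 h or both gained in 30 pairs, 1 of the 2 was called in 42 and neither in 39, and the median absolute difference in log2 fold change was 0.25, in a comparison where 50.1% of all domains were lost. Genes with 4 or more domains differed from one another, and those described first were picked after the values were seen. Tgif1, a repressor of TGF-beta signalling, was nearest to 6 domains that summed to 7648.4 and 7180.2 scaled counts at 0 h, 8745.0 and 8914.7 at 12 h, then 5369.3 and 7381.1 at 48 h, with 3 lost from 12 h to 48 h. The 4 domains nearest Sall1, a zinc finger gene, summed to 8637.7 and 8236.3, then 11208.9 and 11346.9, then 5663.5 and 6958.9, with 3 lost at 48 h. All 5 domains nearest Sulf1, a heparan sulfatase gene, were gained at 12 h, 2 were gained at 48 h and none was lost after 12 h. None of the 5 domains nearest Tns3 was gained and 3 were lost at 48 h. Of the 5 nearest Pitpnc1, 1 was gained at 12 h and 2 were lost at 48 h. No domain was lost at 48 h nearest Myh9, Tbl1xr1, Trak1 and Zfp532, with 4 domains each. Over all 937 domains 41.9% were gained at 12 h, and 16.8% were gained and 21.9% lost at 48 h. The counts per gene were not repeated without single libraries.

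A promoter peak was found for the nearest gene of 847 domains (662 genes). At 48 h, the nearest promoter was gained for 36 of 143 gained domains (25.2%) and lost for none, and it was lost for 39 of 192 lost domains (20.3%) and gained for 4. Over all 16418 promoter peaks, 4.87% were gained and 2.87% lost. At 12 h the nearest promoter was gained for 22 of 342 gained domains (6.43%, against 2.4% of all promoter peaks) and lost for 25 (7.31%, against 17.0%). The first share was 12.8% with the GC offset (3.23% of all promoter peaks), 12.4% and 12.2% without R1 and R2 at 48 h (4.69% and 4.68%), 6.49% and 3.64% without R1 and R2 at 0 h (1.05% and 0.591%) and 5.35% and 5.33% without R1 and R2 at 12 h (1.01% and 0.865%). From 12 h to 48 h the nearest promoter was lost for 41 of 421 lost domains (9.74%, against 2.61% of all promoter peaks). It was gained for more of them, 63 (15.0%, against 27.4%). The log2 changes of domain and promoter had Pearson r = 0.304 at 12 h, 0.446 at 48 h and 0.238 from 12 h to 48 h. These are given as a description, since the 847 domains share libraries and in part promoters with each other. For gained domains the share at 48 h was 20.9% without R1 at 48 h (5.94% of all promoter peaks), 45.6% without R2 at 48 h (17.1%), 22 of 105 without R1 at 0 h (2.37%) and 10.4% without R2 at 0 h (1.19%). For lost domains it was 39.6% (9.75%), 19.7% (5.43%), 13.1% (1.02%) and 4.08% (0.372%) in the same order, and 14.1% (1.58%) without either 12 h library.

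The domains were near distal peaks of 2000 to 4999 bp in GC content and below the other classes, and their changes followed it. Median GC content was 46.4%, against 46.8% in distal peaks of 2000 to 4999 bp, 49.2% in those under 2000 bp and 54.8% in narrower promoter peaks. Of the 312 domains with the lowest GC (35.7% to 44.3%), 216 were gained at 12 h and 18 were lost at 48 h, and of the 312 with the highest (48.0% to 63.7%), 62 were gained and 113 lost. Pearson r between GC content and log2 fold change was -0.49 at 12 h and -0.267 at 48 h over 936 domains that share the same libraries. Narrower distal peaks ran the same way. Those gained at 12 h held 9.95 CG dinucleotides per kb and those lost 35.0, against 10.4 and 21.5 in domains. An offset for GC content fitted over all peaks reduced the median 12 h change of the low-GC group from 0.73 to 0.28 and left that of the high-GC group at 0.14 (0.13 without it). At 48 h the offset moved the 2 medians from 0.10 to -0.02 and from -0.23 to -0.21.

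E-boxes of the CAGATG type (with the reverse complement CATCTG) were denser in domains gained at 48 h, described here with no test. The 936 domains on assembled chromosomes held 0.840 sites per kb, close to 0.835 in distal peaks of 2000 to 4999 bp, and 98.8% had at least 1, as did 88.7% of those shorter peaks. Domains gained at 48 h had 1.01 per kb, those lost 0.802 and those without a call 0.811. Narrower distal peaks showed 1.06, 0.552 and 0.773, so their lost peaks differed more than lost domains did. At 12 h the groups of domains differed less, with 0.878 in gained, 0.759 in lost and 0.814 in those without a call. By quartile of CAGATG density, 8.55%, 15.8%, 14.1% and 28.2% of 234 domains each were gained at 48 h, and 23.1%, 20.5%, 22.2% and 21.8% were lost. CAGCTG had 0.601 sites per kb in domains gained at 48 h, 0.592 in those lost and 0.5 in those without a call. TCAAGGTCA, the Esrrb site, ran the other way, with 0.0629 per kb in lost and 0.0352 in gained domains (0.044 without a call), and so did GGGTGTGG, with 0.163 and 0.0912. The octamer ATGCAAAT was at 0.0496 in lost and 0.0903 in gained domains. At 12 h, with 20 lost domains, TCAAGGTCA (0.0301 in lost, 0.046 in gained) and the octamer (0.0977 and 0.0742) stood in the opposite order. GGGTGTGG kept its order (0.271 and 0.0877). Base composition differs between these groups of domains, and its part in the densities was not tested. These are matches to letters and not sites of binding.

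**Figure D5:**
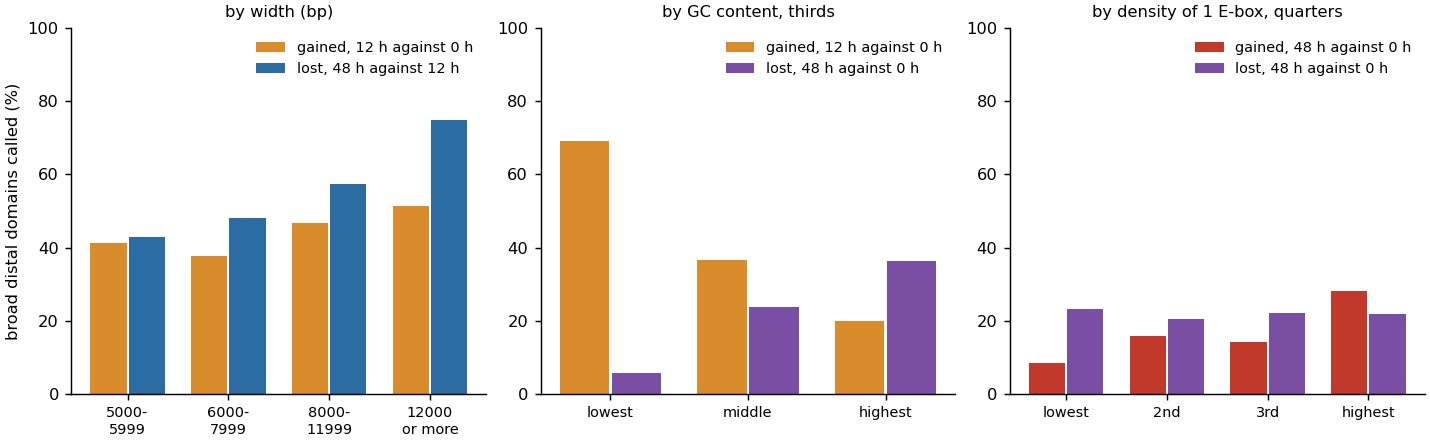
Share of broad distal domains called (%, y axis from 0) by width group, by tertile of GC content and by quartile of CAGATG density, with the comparison and direction of each bar in the legend. The share lost after 12 h is highest, 75.0%, in the widest group, gain at 12 h falls from the lowest to the highest GC tertile, and gain at 48 h reaches 28.2% in the quartile with most E-boxes while loss stays between 20.5% and 23.1%.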

How the data were processed

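H3K27ac ChIP-seq libraries from A2Lox cells were analysed at 0 h, 12 h and 48 h (2 each), and the Input library was not used here. Per the study's methods and labels, the authors used Bowtie2 (local alignment, build mm10) and SAMtools 0.1.19, called peaks with MACS2 against Input, merged peaks over all libraries and deposited the read count per merged peak from QuasR; versions other than that of SAMtools are not given in the sources used here. A merged region joins calls of any time point, so width can exceed that of any single library, and counts are 6283103 to 8112895 per library, which covers counting error only. From the counts, edgeR 4.0.16 (R 4.3.3) quasi-likelihood tests were fitted to all 66841 peaks and 6 libraries with time as the factor and the library total as offset, and p-values were adjusted by Benjamini-Hochberg with a threshold of 0.05. The biological coefficient of variation was 14.9% with 3 residual degrees of freedom. Scaled counts are counts over the library total times the mean total, 6976014. Ratios between single libraries used a pseudocount of 8. Peaks on unplaced or unlocalised scaffolds (58) entered every fit, and the 1 domain there had no GC or motif value. Genes were placed with GENCODE M21 and sequence was read from the RefSeq copy of GRCm38. The nearest promoter is the strongest peak in the 2 kb on either side of the nearest gene's TSSs.

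Named are the 5 widest domains, the 5 with most counts per kb, the 5 largest called gains and losses at 12 h and at 48 h whose later libraries both lay beyond both 0 h libraries, up to 6 domains per gene list by mean count, and the domains on either side of the width limit. The members, gene lists and tests were chosen with earlier results of these data known. Scripts were tested on simulated counts. Alternatives were TMM factors, DESeq2 1.42.0, a filter of 10 counts in 2 libraries, a GC offset, a replicate block, fits of 4 libraries, leaving out each library, a 2-fold minimum, other widths, distances and TSS sets, and the central 500 bp for motifs. Chosen after seeing the data were the fits without high-copy domains the repeats of list, time course and promoter counts, and those of named domains from 12 h to 48 h and of the microRNA domains.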

Additional observations from a re-analysis of the deposited data

Results flagged for a closer look

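The direct test of 48 h against 12 h found 469 of the broad distal domains lower and 31 higher at 48 h. Among the domains named, 34 differed between the 2 induced times by this test, and these are their log2 fold changes from 12 h to 48 h. Of the widest domains, those nearest Mkrn1, Epha2 and Ldlrad3 stood at -0.40, -0.75 and -0.66. Of those with most counts per kb, Mid1 and Gm47283 stood at 0.47 and 0.81, in sequence with near-identical copies. Domains with a large gain at 12 h differed downwards nearest Ercc4 (-0.71), Plekhg1 (-1.16) and Frmd4b (-0.59), and domains with a large loss at 12 h differed upwards nearest 1700001O22Rik (1.08) and Dpf1 (0.66). The domains nearest Skap2 (1.70), Fars2 (0.62) and Susd6 (0.53) went on rising. The largest 48 h losses were at -1.27 nearest Fam53a, -1.37 nearest Ino80d, -1.06 nearest Ephb2, -1.85 nearest Col13a1 and -1.68 nearest Inhbb.

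Among domains of the gene lists, the difference was -0.92 nearest Sox2, -0.77 nearest Mycn, -0.95 nearest Jarid2, -1.06 nearest Klf4 and -0.76 nearest Klf2. It was -0.82 nearest Spry4, -1.19 nearest Lifr, -0.52 nearest Spred2 and -0.61 nearest Dusp5. In the neuronal list it was -0.76 nearest Nrp2, -0.94 nearest Epha4, -0.51 nearest Elavl4 and -0.60 nearest Sema6a. In the chromatin list it was -0.73 nearest Tet2, -0.65 nearest Trim71 and -1.42 nearest Myc. The R1 library at 48 h lay below R2 in 89.3% of all domains, and its part in these differences is given by the counts without it: 428 lower and 58 higher. Without it the differences nearest Mkrn1 (-0.22), Mid1 (0.09), Ercc4 (-0.36), Elavl4 (-0.27) and Sema6a (-0.27) were not called. Those nearest Mkrn1, Mid1, Elavl4 and Sema6a were also not called by DESeq2 or without any 1 of the 0 h and 12 h libraries.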

How the results depend on the processing

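The number of domains gained at 12 h (393) became 133 at 2-fold or more and 624 with a width minimum of 4000 bp, and ran from 121 to 576 without single libraries. The number lost (20) became 11 with TMM, 9 with DESeq2, 50 with the GC offset, 68 in the 4-library fit, 1 at 2-fold, 33 at 4000 bp, 9 beyond 10 kb of a TSS and 13 with all TSSs, and 1 to 68 without single libraries. The median (0.38) became 0.45, 0.43 and 0.21 with TMM, DESeq2 and the GC offset and 0.43 and 0.44 with the distance and TSS alternatives. At 48 h against 0 h, gains (157) became 74 at 2-fold and 272 at 4000 bp, and 71 to 335 without single libraries. Losses (205) became 123 with DESeq2, 135 in the 4-library fit, 24 at 2-fold and 135 with all TSSs, and 51 to 497 without single libraries. The median ran from -0.35 to 0.10, with the sign turned without R1 at 48 h, as for the read share (-1.81 to 1.04 percentage points). From 12 h to 48 h, gains (31) became 63 with the GC offset, 8 at 2-fold and 62 at 4000 bp, and 9 to 58 without single libraries. Losses (469) became 111 and 712, and 155 to 716. The read share difference ran from 3.51 to 3.92 at 12 h and from -5.52 to -2.67 after it. In the central 500 bp, sites per kb were 5.47 for CANNTG, 0.771 for CAGATG, 0.0534 for TCAAGGTCA, 0.103 for GGGTGTGG and 12.8 for CG. Without R1 at 48 h, the 48 h change turned to 0.35 nearest Lifr and 0.31 nearest Epha4, against -0.79 and -0.44 without R2. The cause of these moves was not tested. For 112 called values of named and microRNA domains, 1344 alternatives gave 1139 with the same call, 205 with none and 0 reversed. Many of these alternatives could not reverse a change. The 4-library fit and leaving out a library of the time not compared left fold changes nearly as they were. The largest gains and losses were also chosen for later libraries that lay beyond both 0 h libraries.

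Libraries with the same number did not deviate together (r of -0.036, -0.05 and 0.078 over all peaks and of -0.077, -0.036 and 0.165 over the domains), so the numbers were not read as pairs. A fit with a replicate block called 391 gained and 17 lost at 12 h, 154 and 205 at 48 h, and 28 and 469 from 12 h to 48 h. Leaving out the domains with most counts per kb and those of repeats, chosen after seeing the data, left 378 and 18, 155 and 201, and 29 and 465 of 912. With 2 libraries a time, an arm with 1 library left is assumed to vary like the others, and weak peaks had less power than these domains.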
